A study of Homo sapiens with 12 samples.

Results

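The comparison described here set HAP1 cells that had received 4-thiouridine (4SU) and UVA light against untreated HAP1 cells, by ribosome profiling. HAP1 is a near-haploid human line derived from KBM-7 cells, and all cells were wild type. The treated cells carried 5 uM 4SU for 18 h before 6 kJ per square metre of UVA and were collected 30 min later, while the untreated cells received neither agent. The comparison used 6 of the 12 libraries of the series, 3 replicates of each group. The remaining libraries came from cells given 4SU alone or UVA alone, also with 3 replicates each. The 4SU cells received 5 uM for 18 h and no UVA. The UVA cells received 6 kJ per square metre without 4SU and were collected 30 min later. The labels do not say whether replicates were separate cultures, so p-values measure only the spread between libraries. For single genes that spread was estimated within all 4 groups, over the 12 libraries. Of 19580 genes in the table, 11276 reached 1 RPKM (reads per kilobase of transcript, scaled to the depth of the library) in at least 3 of these 6 libraries and were tested.

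4SU is a uridine analogue that cells build into newly made RNA. When it absorbs UVA it can bond covalently to a protein that touches the RNA, which is how the pair of agents creates RNA-protein crosslinks in living cells. Ribosomes that meet such an obstacle on an mRNA can stall and collide, and collided ribosomes are known to start quality control of the mRNA and the nascent chain as well as stress signalling. In ribosome profiling, RNase digests RNA that no ribosome covers, and the protected fragments, the footprints, are sequenced. The density of footprints on a transcript rises with the amount of the mRNA and with the number of ribosomes on it, and footprints alone do not tell these apart. Crosslinks themselves were not measured in these libraries.

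The table lists each gene by an Ensembl identifier and a transcript identifier and gives no symbol. None of the identifiers, with or without their version, was in the gene table used here (0 of 19580), so genes could not be sorted by function, no sequence was matched, and the identity of the line could not be checked against marker genes. The genes are therefore described by their levels, the lengths of their transcripts and their behaviour in each library, and 4 identifiers stand for the largest rises and falls.

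Depth in the untreated libraries was 3785480, 5278490 and 5832366 reads. The 4SU+UVA libraries held 5526950, 1899854 and 3044856 reads, so replicate 2 of the treated group was the shallowest of all 12. A tested gene had a median of 114 to 173 reads in an untreated library and of 189, 67 and 108 reads in the 4SU+UVA libraries. Untreated replicates lay close together, with a median standard deviation of 0.115 per gene on the log2 scale, against 0.150 for 4SU+UVA. Among genes above 50 RPKM the same measure was 0.055 and 0.099.

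Footprint density changed at 6784 of the 11276 genes, 60.2% of those tested (limma, Benjamini-Hochberg adjusted p under 0.05, n = 3 per group). It rose at 4663 genes (41.4%) and fell at 2121 (18.8%). Most changes were moderate. The 25th and 75th percentiles of all genes lay at -0.15 and 0.57 on the log2 scale, and the 5th and 95th at -0.80 and 1.07. A change of at least 2-fold was made by 715 rising and 333 falling genes, together 9.29% of those tested, and of at least 4-fold by 39 and 9. These counts depend on the settings. With a pseudocount, the amount added before taking logarithms, of 0.1 RPKM in place of 0.5 the counts past 4-fold were 104 and 15, and with 1 RPKM 24 genes rose that far. A filter at 5 RPKM left 398 rises and 321 falls of at least 2-fold, and 23 and 8 of at least 4-fold. Of the 676 genes that rose 2-fold to 4-fold, 352 averaged under 5 RPKM. Of the 333 that fell at least 2-fold 22 did, and of all genes tested 27.3%. At 64.6% of genes every treated library lay on the same side of every untreated one, above at 44% and below at 20.5%.

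RPKM values are relative to the total of each library, and the change of the median gene was 0.23 (log2). Centring each library on its own median value lowered every log2 change by 0.16 and left the median gene at 0.07. On that scale 3198 genes were higher (28.4%), 2834 were lower (25.1%) and 6032 changed (53.5%). All 3198 had also risen with the deposited scaling, and all 2121 genes that had fallen there fell again. The other 1465 risers did not pass as higher after centring, 713 genes passed as lower only after centring, and 0 genes passed with opposite signs. Centring turned the balance of changes of at least 2-fold, with 415 genes higher and 521 lower. At 4-fold or more rises still led, with 29 genes higher and 17 lower. Quantile normalisation gave 3024 higher and 2902 lower genes. Centring on all genes with a read, with no filter, gave 2050 higher and 4263 lower, so which side holds more genes depends on the genes that set the median.

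A set of genes stayed nearly level. For 1024 genes (9.08%) the 95% confidence interval of the change included no rise of 25% and no fall of the same ratio, and for 1118 genes (9.91%) after centring. Intervals lay wholly beyond these bounds at 2223 genes on the higher and 1113 on the lower side, or at 1311 and 1580 after centring. The remaining intervals crossed one of these bounds. The median standard error of a log2 change was 0.13.

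**Figure D1:**
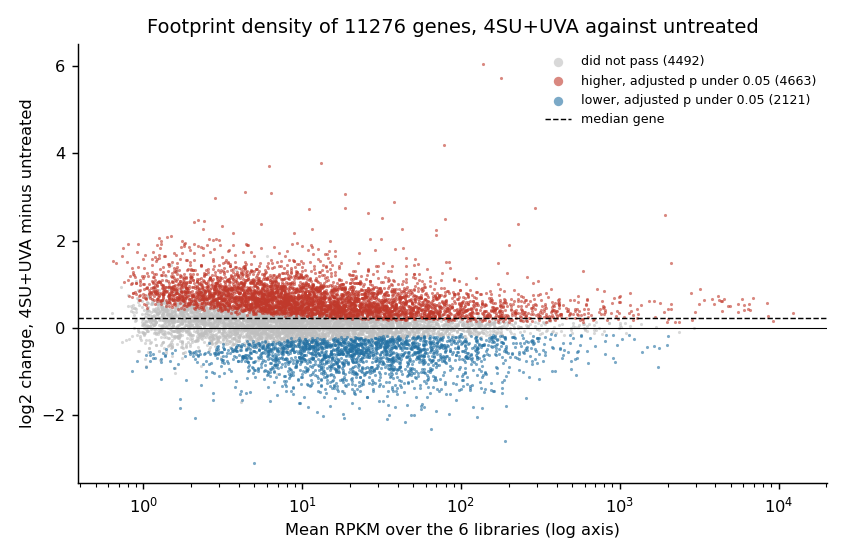
Each point is 1 of the 11276 genes tested, placed by its mean RPKM over the 6 libraries (log axis) and by its log2 change between 4SU+UVA and untreated cells; colours give the limma call and the dashed line the median gene at 0.23. A pair of genes near a log2 change of 6 stands apart from all others, and most genes above 1000 RPKM lie above 0.

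The largest rises were those of ENSG00000120738 and ENSG00000177606. In untreated replicates 1 to 3, ENSG00000120738 (transcript length 3137 nt) lay at 3.03, 3.87 and 3.66 RPKM. Its values in the 4SU+UVA libraries were 179, 318 and 318 RPKM. Every treated library exceeded every untreated one, and replicate 1 was the lowest of the treated libraries. The log2 change was 6.04 (SE 0.18, limma adjusted p = 1.8e-11, n = 3 per group), or 5.88 after centring. The fit shares 1 spread per gene among all 4 groups, so this SE understates the spread of the treated libraries. With only the 6 libraries in the fit the limma adjusted p was 3.8e-08. The gene moved from rank 8666 to rank 348 among the genes tested when these were ordered by mean RPKM. With 4SU alone it lay at 3.25 ± 0.129 RPKM and with UVA alone at 4.77 ± 0.575 RPKM (SD, n = 3 each). In both single treatments the change from untreated cells did not pass (log2 -0.09 and 0.39, SE 0.18 each, limma adjusted p = 0.77 and 0.58).

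For ENSG00000177606 (3257 nt) the untreated libraries held 6.49, 5.00 and 6.63 RPKM and the 4SU+UVA libraries 251, 379 and 418 RPKM. The groups were again far apart, and replicate 1 was again the lowest treated library. Its log2 change was 5.72 (SE 0.17, limma adjusted p = 1.8e-11), or 5.56 after centring, and its rank moved from 7223 to 269. The same limit holds for this SE, and with only the 6 libraries the limma adjusted p was 2.4e-08. The density was 6.04 ± 0.897 RPKM with 4SU and 10.5 ± 1.57 RPKM with UVA (SD, n = 3 each), neither of which passed against untreated cells (log2 0.00 and 0.75, limma adjusted p = 1 and 0.084). The lowest UVA library, at 9.25 RPKM, lay above the highest untreated one.

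A wide gap separated both from the remaining genes. Among the 3238 rising genes that averaged at least 5 RPKM and whose groups did not overlap, the third largest change was 4.17, the fourth 3.76, and the twentieth 2.24 on the log2 scale. Of the 20 largest rises 13 were on transcripts under 2000 nt, as were 34.7% of all genes tested, and 5 on transcripts over 3000 nt. Their median length was 1291.5 nt, and that of all genes tested 2625.5 nt. Their untreated levels ran from 0.314 to 510 RPKM with a median of 6.5. The 5 RPKM bound applies to the mean over both groups, so a gene low in untreated cells could enter through its treated libraries. These levels are therefore a description only. The single treatments share the untreated libraries with this comparison. Under them the median change of the 20 largest rises was 0.12 (4SU, range -0.22 to 1.96) and 0.44 (UVA, range -0.13 to 2.8).

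The largest falls were those of ENSG00000141367 and ENSG00000175216. ENSG00000141367 (5292 nt) lay at 326, 313 and 329 RPKM in untreated cells and at 54.7, 53.4 and 51.9 RPKM with 4SU+UVA. Both groups were tight and lay about 6-fold apart (log2 -2.59, SE 0.18, limma adjusted p = 4.6e-08; -2.75 after centring). The gene dropped from rank 271 to rank 1774. UVA alone left it at 296, 306 and 297 RPKM (log2 -0.11, limma adjusted p = 0.93). With 4SU alone its libraries held 125, 178 and 274 RPKM, a fall (log2 -0.82, SE 0.18, limma adjusted p = 0.0085) with a wide spread between replicates. The SD was 75.8 RPKM with 4SU and 8.35 RPKM in untreated cells. The fit shares 1 spread per gene among all 4 groups, so this SE understates the spread of the 4SU libraries. A fit with separate spreads was not run.

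ENSG00000175216 (6428 nt) had the second largest fall, from 109, 105 and 108 RPKM to 19.4, 21.5 and 22.9 RPKM. The log2 change was -2.31 (SE 0.20, limma adjusted p = 2.8e-07), or -2.47 after centring, and the groups did not overlap. It too passed with 4SU alone, at 40.7, 63.4 and 94.9 RPKM (log2 -0.77, SE 0.20, limma adjusted p = 0.017), and not with UVA alone, at 99, 105 and 100 RPKM (log2 -0.08, limma adjusted p = 0.96). Its SD was 27.2 RPKM with 4SU and 1.77 RPKM in untreated cells, so the same limit holds for its call with 4SU alone. The 4SU libraries of both genes stood in the same order, with replicate 1 the lowest and replicate 3 the highest.

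**Figure D2:**
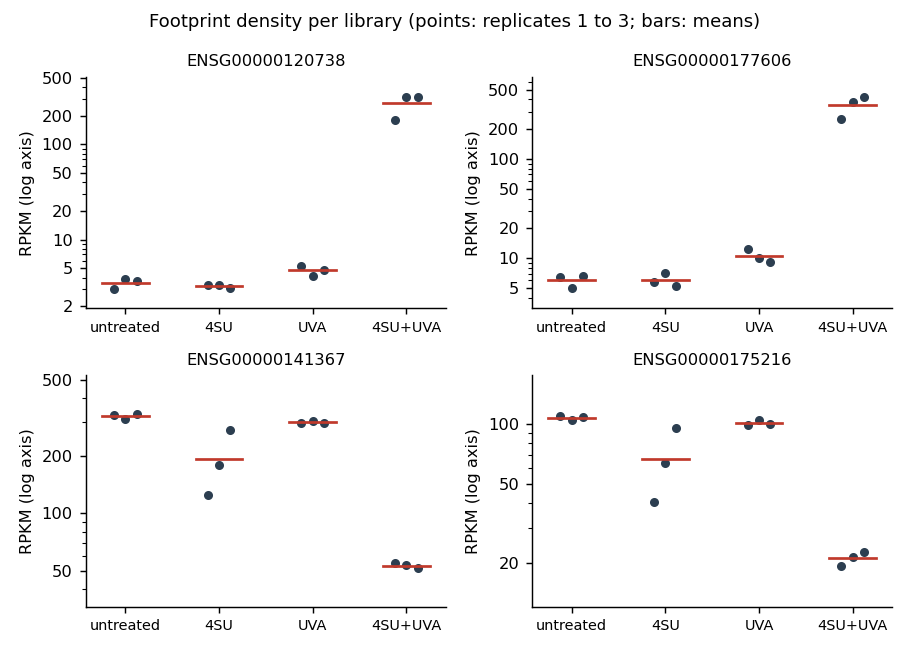
Footprint density (RPKM, log axis) of the 2 largest rises (upper row) and the 2 largest falls (lower row) in all 12 libraries; points are replicates 1 to 3 from left to right and bars are group means. The rises reach 179 RPKM or more only in the 4SU+UVA libraries, whereas both falling genes are also lower in the 4SU libraries, which spread from 125 to 274 and from 40.7 to 94.9 RPKM.

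Falls spanned a narrower range of sizes than rises. Among 1885 eligible falling genes the twentieth largest change was -1.80, so the 20 largest spanned -2.59 to -1.80. All 20 had transcripts over 3000 nt, as had 42.5% of all genes tested. Their lengths ran from 4200 to 12784 nt with a median of 6669 nt, and their untreated levels from 17.1 to 323 RPKM. A falling gene reaches a mean of 5 RPKM only from an untreated level above it. The rule therefore partly sets how these levels differ from those of the rises. Across the 20 largest falls the change with 4SU alone had a median of -0.48 (range -0.93 to -0.15). That with UVA alone had a median of -0.05 (range -0.20 to 0.02). In the genes that fell at least 2-fold, the highest treated library exceeded the lowest by a median ratio of 1.2, close to the 1.23 of all genes tested, while in those that rose at least 2-fold this ratio was 1.39. These sets differ in level, with a median of 24.0 RPKM for these falls and 4.76 RPKM for rises of 2-fold to 4-fold. The part of level in the ratio was not tested. In 2 of the 9 genes that fell at least 4-fold the ratio exceeded 2.

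The strongest rises were carried unevenly by the treated libraries. In the 39 genes that rose at least 4-fold the median ratio of highest to lowest 4SU+UVA library was 2.56, and it exceeded 2 in 23 of them. The highest library was replicate 2, the shallowest, in 32 of these 39 genes, replicate 3 in 6 and replicate 1 in 1. These genes took 1.41%, 2.33% and 0.995% of the reads of the 4SU+UVA libraries, against 0.185% to 0.233% in untreated cells. Without replicate 2 the count of rises of at least 4-fold was 29, and without replicates 1 and 3 it was 52 and 47. The part of depth in this was not tested.

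Of these 39 genes, 5 averaged more than 100 RPKM over the 6 libraries, among them both identifiers named above. The other 3 were already well covered in untreated cells and varied most. A 1658 nt transcript lay at 449, 529 and 553 RPKM in untreated cells and at 3098, 5247 and 1772 RPKM with 4SU+UVA (log2 2.59, SE 0.30, limma adjusted p = 6.4e-06). A 7260 nt transcript went from 63.2, 73.1 and 68.9 to 544, 775 and 226 RPKM (log2 2.73, SE 0.31, limma adjusted p = 4.1e-06). The third, of 7575 nt, went from 46.8, 79.7 and 84.3 to 313, 633 and 225 RPKM (log2 2.37, SE 0.35, limma adjusted p = 4.9e-05). All 3 were highest in replicate 2 and lowest in replicate 3, with ratios of 2.81 to 3.43 between these libraries, whereas both identifiers named above were lowest in replicate 1. Their SEs rest on the spread shared among all 4 groups and so understate the spread of their treated libraries. These 3 genes were picked out after their values had been seen.

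How the change depended on transcript length was followed with lengths recovered from the RPKM values and with class bounds set after results of these data were known. Under 500 nt, 96 of 160 genes rose (60%) and 2 fell (1.25%), with a median of 0.50 on the log2 scale. The share that rose was 61.2%, 47.4%, 39.8%, 32% and 28% in the classes that start at 500, 1000, 2000, 4000 and 8000 nt, and the share that fell climbed to 3.3%, 11.7%, 21.7%, 25.8% and 31.8%. The median change went from 0.41 in genes of 500 to 999 nt to 0.06 in the 510 genes of 8000 nt or more. After centring it went from 0.34 in the shortest class to -0.05 from 4000 nt and -0.10 from 8000 nt, and 192 of the longest genes were lower against 85 higher. Falls of at least 2-fold were rare on short transcripts, with 11 among the 3918 genes under 2000 nt and 322 among the 7358 longer ones. Rises of at least 2-fold were found in every length class but made up a smaller share of the longest. They were 25 of 160 genes under 500 nt, 287 of 4237 from 2000 to 3999 nt and 9 of 510 from 8000 nt. Among all genes tested they were 715 of 11276.

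Length and change were also set against each other within classes of level. Under 10 RPKM, the median change of genes from 4000 to 7999 nt was 0.23 (1714 genes, 627 higher and 222 lower), the same as that of all genes. At 10 to 50 RPKM genes of that length had a median of -0.19 (783 genes, 193 higher and 369 lower), and at 50 to 200 RPKM one of -0.61 (106 genes, 12 higher and 78 lower). The lowest median among the classes of at least 20 genes, -0.87, belonged to the 87 genes of 8000 nt or more at 10 to 50 RPKM, of which 62 fell and 11 rose. After centring these medians were 0.07, -0.35, -0.77 and -1.03. At the other end, 39 of 43 genes under 500 nt with 200 RPKM or more rose and 0 fell, with a median of 0.53, or 0.37 with 36 higher and 1 lower after centring. The rank correlation of length and change across genes was -0.25 under 10 RPKM (5263 genes), -0.39 at 10 to 50 RPKM (4119), -0.54 at 50 to 200 RPKM (1442) and -0.58 from 200 RPKM (452). Pearson's r with the logarithm of length was -0.26, -0.41, -0.48 and -0.45 in the same classes, so the last class was not the strongest by that measure. Low genes are measured with more noise, which also lowers a correlation, and its part was not tested. Genes share libraries and are not independent replicates, so these values carry no p. At equal RPKM a longer transcript also holds more reads, so its change is more easily called.

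**Figure D3:**
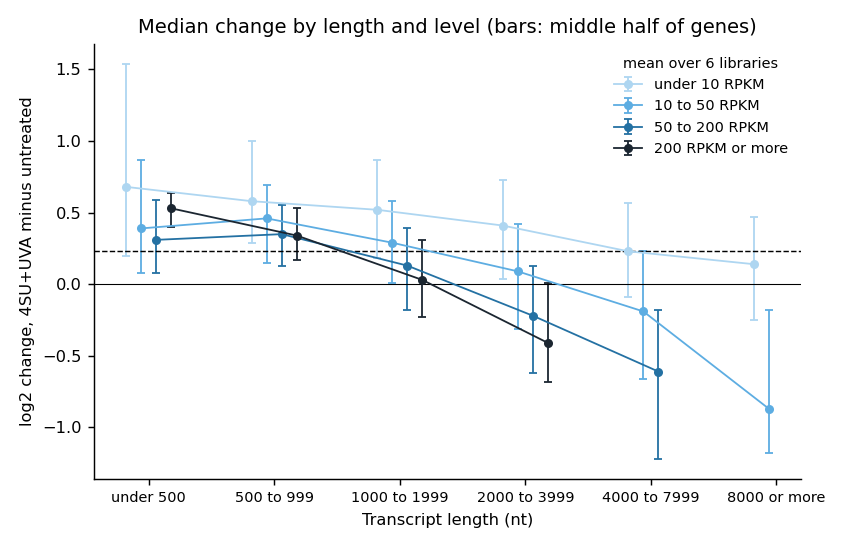
Median log2 change between 4SU+UVA and untreated cells by transcript length, in 4 classes of mean RPKM over the 6 libraries; points are medians, bars span the 25th to 75th percentile, classes under 20 genes are left out and the dashed line is the median gene. The decline with length is shallow under 10 RPKM (0.68 to 0.14) and steeper at 10 to 50 RPKM (0.39 to -0.87).

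The shares of reads show the same shift without any test on single genes. Transcripts under 500 nt took 5.77 ± 0.215% of the reads after 4SU+UVA and 4.00 ± 0.0253% in the untreated group, and those of 500 to 999 nt 15.6 ± 0.0471% and 12.3 ± 0.159% (SD, n = 3 each). In the classes from 2000, 4000 and 8000 nt the share went from 34.1 ± 0.0833% to 31.0 ± 0.565%, from 20.5 ± 0.117% to 18.3 ± 0.678% and from 4.89 ± 0.0786% to 3.45 ± 0.195%. In each of these 5 classes and in that of 1000 to 1999 nt the 3 treated libraries lay on one side of the 3 untreated ones (exact two-sided permutation tests over 20 regroupings, p = 0.1 each before adjustment, the smallest that 3 against 3 can give). With 4SU alone the shortest class took 4.11 ± 0.152% and the longest 4.57 ± 0.061%, and with UVA alone 3.20 ± 0.0579% and 4.94 ± 0.0769%.

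**Figure D4:**
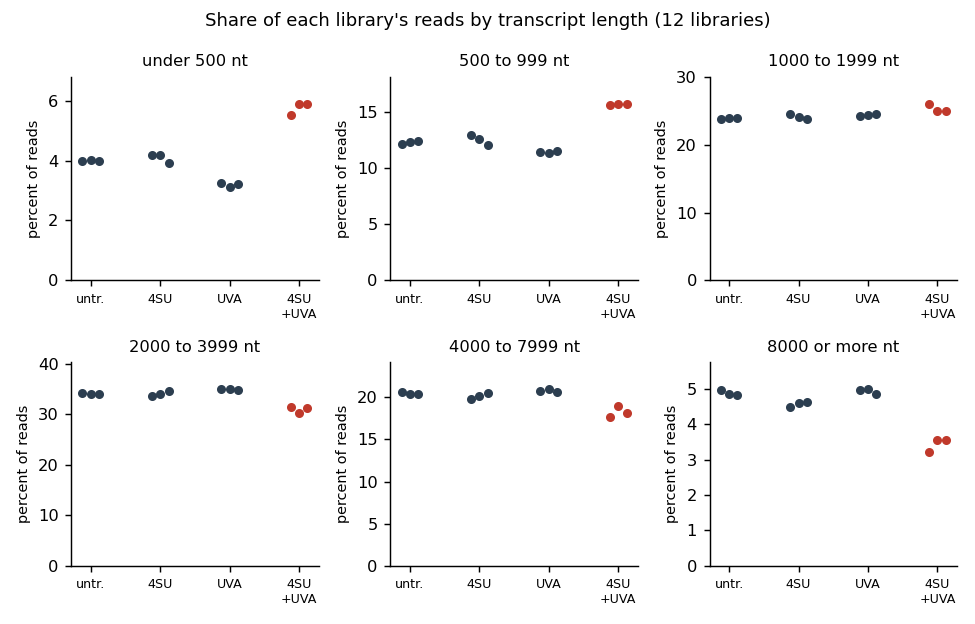
Share of reads (percent of the library total, axes from 0) on transcripts of 6 length classes in all 12 libraries; points are replicates 1 to 3 of each group and the 4SU+UVA libraries are in red. The red points lie above the untreated ones in the 3 classes under 2000 nt and below them in the 3 longer classes.

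By level, the share of genes that rose was highest among the most abundant. Of 75 genes of at least 1000 RPKM 55 rose (73.3%) and 10 fell, with a median change of 0.37, while at 50 to 200 RPKM the median was 0.06, with 555 of 1442 genes higher (38.5%) and 474 lower. After centring, the medians of these classes were 0.21 and -0.10. Of 1057 genes under 2 RPKM 405 rose (38.3%), a share below that of all genes. Their median change was 0.44, but some of these genes pass the filter only through the libraries where they are high, and the classes use the mean over treated and untreated libraries, so that median is a description only. The use of that mean limits every level class, including the most abundant. The 75 most abundant genes took 18.2 ± 0.55% of the reads after 4SU+UVA and 14.3 ± 0.158% in the untreated group (SD, n = 3 each). The 0.5 RPKM added before taking logarithms draws the changes of low genes toward 0.

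Each library was also described by its own ranking of genes. The 10 genes with most reads took 5.10%, 5.20% and 5.29% of reads in untreated cells and 6.15%, 7.41% and 6.39% with 4SU+UVA, so the treated libraries were the higher ones (exact permutation test, two-sided, p = 0.1, which 3 against 3 cannot go below). In all 3 treated libraries the gene with most reads was the same one, on a 4298 nt transcript. It held 1.02%, 1.65% and 1.35% of reads there, against 0.467%, 0.451% and 0.491% in untreated cells. Because it was picked by its place in the treated libraries, a higher share there is partly fixed by the choice. In untreated cells the first place belonged to a gene with a 3158 nt transcript. At the same time the 1000 leading genes took less, 55.0 ± 0.265% against 56.8 ± 0.231% (SD, n = 3 each), and 752 ± 9.54 genes were needed to cover 50% of the reads against 707 ± 9.54 (exact two-sided permutation test, p = 0.1 for both measures). On these measures the single treatments gave shifts of the same direction, with 54.5% (4SU) and 55.2% (UVA) of reads on the 1000 leading genes and 796 and 774 genes for 50% of the reads. The 10 leading genes went the other way there. They took a mean of 5.02% with 4SU and 4.69% with UVA, below the 5.2% of untreated cells. The effective number of genes, the exponential of the Shannon entropy of the read shares, overlapped between the groups (3708 ± 61.1 with 4SU+UVA and 3628 ± 36.3 untreated, SD, n = 3 each, exact permutation test, two-sided, p = 0.2).

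More genes were met at a given depth after treatment. At 1898709 reads, the number of reads on listed genes in the shallowest library, the expected number of genes with at least 1 read was 12803, 12760 and 12756 in the untreated libraries and 13282, 13369 and 13306 with 4SU+UVA. The groups did not overlap (exact permutation test, two-sided, p = 0.1; p-values of these library measures are not adjusted). The same number was 12932 ± 54.6 with 4SU alone and 12860 ± 59.2 with UVA alone (SD, n = 3 each).

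The values of the same genes under the single treatments are set side by side here. All 3 comparisons share the untreated libraries, so a low or high untreated value enters each of them, and the agreement of their signs is partly fixed by how the genes were chosen. Genes that rose 2-fold to 4-fold had a median change of 0.44 with 4SU and 0.19 with UVA. Of these 676 genes 200 passed as higher with 4SU alone and 17 with UVA alone, where 11.6% and 0.284% of all genes tested passed as higher. For the 39 genes that rose at least 4-fold the medians were 0.43 and 0.48, and 6 and 3 of them passed as higher. Genes that fell at least 2-fold had medians of -0.28 and -0.02. Of these 333 genes 134 passed as lower with 4SU alone and 0 with UVA alone, where 3.25% and 0.381% of all genes tested passed as lower.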

How the data were processed

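Ribosome footprints of 12 HAP1 libraries were used, grouped by the titles in the labels. The authors deposited 1 table of RPKM values. STAR 2.7.10a and the build hg38 are listed in the submitters' processing notes, and how reads were counted, on which annotation and after which filters is not given in the sources used here. Library totals, transcript lengths and reads were recovered as the whole numbers behind the RPKM values. All 15937 genes with a read had such a length. The search took the smallest length that gave whole reads in every library, so a length may be too short where a gene's reads share a factor. The recovered reads of the table's genes summed to 99.932% to 99.95% of each total found, which the search did not require. Reads carry no molecular identifiers in the protocols.

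Each gene's log2(RPKM + 0.5) was fitted with limma 3.58.1 under R 4.3.3 (lmFit, then eBayes with trend), in a model of 4 group means over all 12 libraries, two-sided, with Benjamini-Hochberg adjustment over the 11276 genes and a threshold of 0.05. Genes at 1 RPKM in exactly 3 of the 6 libraries (316 genes, median 1.03 RPKM) lay just inside the filter, and those in exactly 2 (270 genes, median 0.739 RPKM) just outside. Confidence intervals of changes come from the same fit, and shares are percentages of a library's recovered total. The steps were tested on simulated data. Members, lists and classes were chosen with earlier results of these data known. Named identifiers are the 2 largest rises and 2 largest falls among called genes that average 5 RPKM or more and whose groups do not overlap. The 46 lists of genes by symbol and the marker lists could not be applied, since 0 identifiers have a symbol here. Same-numbered libraries did not deviate together (r = -0.019, -0.033 and 0.035), so no pairing was used.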

Additional observations from a re-analysis of the deposited data

How the results depend on the processing

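The count of changed genes stayed between 5555 and 6967 with the deposited scaling and between 5297 and 6313 with centring. These ranges cover changes of pseudocount, filter, variance trend, libraries in the fit and the replicate block. Quantile normalisation gave 5926 changed genes. No named identifier lost its call or sign under any of these settings. Leaving out 1 library at a time gave 6038 to 6369 changed genes, and 5289 to 5628 after centring. The replicate block gave 6799 changed genes, or 5987 after centring, but libraries share only a number. Quantile normalisation gave 3024 higher genes, with 314 higher and 561 lower by at least 2-fold. By at least 4-fold 26 were higher and 19 lower. Median centring gave 415 higher and 521 lower by at least 2-fold, in place of 715 and 333 with the deposited scaling. By at least 4-fold it gave 29 higher and 17 lower, in place of 39 and 9. Centring over all 15311 genes with a read in any of the 6 libraries, with no filter, gave 2050 higher and 4263 lower genes. By at least 4-fold 24 were higher and 33 lower there. The balance after centring therefore depends on which genes set the median. Counts of changes of 4-fold or more, added after the data had been seen, moved with the pseudocount. With 0.1 there were 104 higher and 15 lower (82 higher after centring), and with 1 there were 24 higher (270 higher by at least 2-fold after centring). The filter at 5 RPKM left 398 rises and 321 falls of at least 2-fold, and 23 and 8 of at least 4-fold, with fewer genes tested. The alternatives planned for lists of genes by symbol were not run, for want of symbols. Depth limits the low genes, since 6.72% of tested genes had under 10 reads in 4SU+UVA replicate 2.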

Other observations

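Outside the genes tested, 64 genes had reads in all 3 4SU+UVA libraries and in 0 of the untreated ones, although the untreated libraries were deeper (14896336 against 10471660 reads in all). The reverse, reads in all 3 untreated libraries and in 0 treated ones, was found for 17 genes. These genes were sparsely covered, with a median of 6 and 5 reads summed over the 3 libraries and at most 14 and 15, so no fold is given, and the difference was not tested.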
